A study of Mus musculus with 12 samples.

Results

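The genes described here encode plasma proteins of the complement, coagulation and fibrinolysis systems, most of which the liver secretes. They are 41 genes chosen by name from the 41743 genes of the deposited tables, 21 of complement and 20 of coagulation and fibrinolysis, and all 41 were found in both tables. RNA was sequenced from the whole livers of 12 female mice aged 3 to 4 months, in 4 groups of 3 mice. YAP1 KO mice (C57BL/6; LM74, LM189 and LM191) carried Foxa3-Cre with homozygous floxed Yap1 and a ROSA-stop-EYFP reporter, and WT (C57BL/6) mice (LM75, LM192 and LM193) were their wild-type littermate controls. YKTH mice (YAP1 KO TAZ Heterozygote, mixed C57BL/6-FVB, mice LM225, LM250 and LM251) came from a separate line with floxed Yap1 and Wwtr1, crossed to Foxa3-Cre. Where Cre acts they lacked Yap1 and 1 copy of Wwtr1, the gene for TAZ. The paper names no reporter for that line. WT (mixed) mice (LM226, LM227 and LM230) were their wild-type littermate controls. All were F3 offspring of backcrosses. Foxa3-Cre acts in the foregut endoderm, so that hepatocytes and the biliary lineage lose the genes while other liver cells keep them. YAP1 KO and YKTH mice differed in background and in floxed line as well as in genotype, and these cannot be told apart.

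YAP1 and TAZ are transcriptional co-activators of the Hippo pathway that bind DNA through TEAD proteins, and mice without YAP1 in the liver endoderm lack intrahepatic bile ducts and are chronically cholestatic. Complement is a cascade in which the classical, lectin and alternative pathways each cleave C3, after which the terminal proteins assemble into a membrane attack complex that perforates target membranes. Coagulation proteases activate one another until thrombin turns fibrinogen into fibrin, anticoagulant proteins restrain them, and plasmin dissolves the clot. Hepatocytes make most of these proteins, whereas properdin comes largely from myeloid cells, factor VIII from endothelium and adipsin from fat. The measurements are of RNA, and no plasma protein was measured.

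Values are in TPM (transcripts per 1000000 transcripts, a level corrected for transcript length), divided by a scaling factor per library and called scaled TPM below. Fold changes are differences of log2(scaled TPM + 1), which understate the change of low genes, and adjusted p is that of limma with the Benjamini-Hochberg adjustment over all genes tested. Here "rose" and "fell" mean an adjusted p under 0.05 for a gene. For a ratio of 2 genes they give the direction alone. The scaling factors were 0.842 to 0.897 in WT (C57BL/6), 1.08 to 1.21 in YAP1 KO, 0.868 to 0.958 in WT (mixed) and 1.09 to 1.20 in YKTH, so that they differed between models and controls. With them the median log2 change of all genes was −0.05 in YAP1 KO and −0.04 in YKTH, and in TPM as deposited it was 0.28 and 0.24. A change is therefore read against that shift, and each member was also tested in TPM as deposited and after quantile normalization. Yap1 lay between 32.4 and 36.2 scaled TPM in WT (C57BL/6) and between 1.53 and 3.08 in YAP1 KO (log2 fold change −3.52, SE 0.18, limma adjusted p = 8.97e-06), and between 34.6 and 36.3 in WT (mixed) and 7.22 and 10.6 in YKTH (−1.93, SE 0.14, limma adjusted p = 3.61e-05). Wwtr1 was at 8.74 to 9.25 scaled TPM in WT (mixed) and 10.6 to 11.8 in YKTH (0.26, limma adjusted p = 0.0743), a level over all liver cells that does not by itself check the loss of 1 copy. The 8 hepatocyte markers, Alb and Hnf4a among them, summed to 119593–126924 scaled TPM in WT (C57BL/6), 86384–106854 in YAP1 KO, 98099–133935 in WT (mixed) and 82547–110364 in YKTH, with 1 higher and 2 lower in each model. Of all TPM as deposited, these markers made up 10.1% to 11.3% in WT (C57BL/6) and 10.4% to 11.7% in YAP1 KO, which overlapped. The lower sums in YAP1 KO thus depended on the scaling. In YKTH the markers overlapped those of WT (mixed) on either scale. In whole liver, fewer cells of a type and less RNA per cell cannot be told apart.

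In YAP1 KO livers 24 of the 41 genes changed, 11 higher and 13 lower, and in YKTH livers 17 did, 7 higher and 10 lower. That is 58.5% and 41.5% of the members, where 37% and 38.2% of all genes tested changed. Of all genes, 18.5% were higher and 18.5% lower in YAP1 KO, and 19.2% higher and 19% lower in YKTH. The median log2 change of the members was −0.11 in YAP1 KO and −0.06 in YKTH, near the medians of all genes. Both cascades held members that rose and members that fell. Of 21 complement genes 9 rose and 4 fell in YAP1 KO (median 0.16) and 5 rose and 4 fell in YKTH (median 0.20), and of 20 coagulation and fibrinolysis genes 2 rose and 9 fell in YAP1 KO (median −0.34) and 2 rose and 6 fell in YKTH (median −0.26). These medians were 0.53 and 0.40 for complement and 0.03 and 0.06 for coagulation in TPM as deposited, so that the coagulation median lay below that of all genes on either scale.

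The direction of many small changes depended on the scaling. There were 18 members higher and 6 lower in YAP1 KO in TPM as deposited, and 15 higher and 5 lower in YKTH. After quantile normalization the counts were 18 and 8 in YAP1 KO and 18 and 7 in YKTH. In TPM as deposited the median log2 change of all genes was itself 0.28 in YAP1 KO and 0.24 in YKTH. The shares of all genes under each of these scalings alone are not given here, so these counts are not read as particular to the members. Members past the threshold in 1 direction under all 3 scalings, a rule formed after their values were seen, numbered 11 higher and 5 lower in YAP1 KO, where 15.8% and 7.04% of all genes did the same. In YKTH they were 7 higher and 5 lower, with 15.9% and 7.32% of all genes. Those higher in both models by this rule were C3, Cfp, C6, C8a, Pros1 and Cpb2, and those lower in both were Mbl2, Masp2, C8g and F11.

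**Figure D1:**
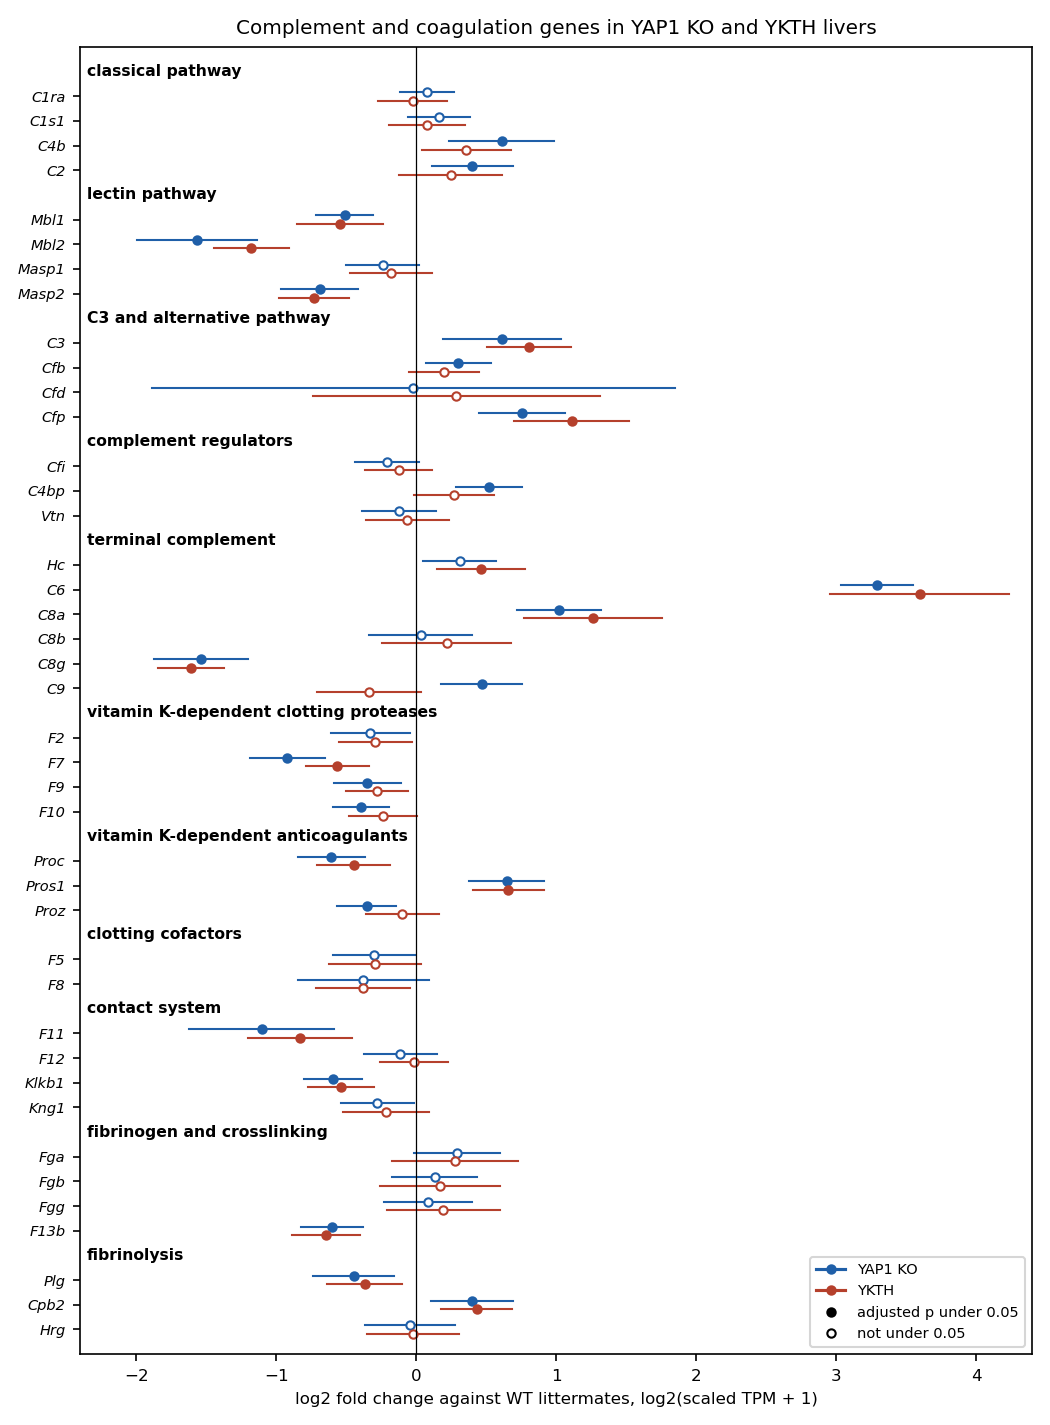
Log2 fold change (x axis, of scaled TPM + 1) of the 41 genes, ordered by role, in YAP1 KO against WT (C57BL/6) and in YKTH against WT (mixed). Points are estimates with 95% confidence intervals, filled where the limma adjusted p was under 0.05; C6 lies far to the right at 3.29 and 3.60, and C8g and Mbl2 lie farthest to the left.

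The models shared most of these changes in sign. With the adjusted p under 0.05 in each, 6 members were higher in both models and 10 lower in both, where 14.8% and 13.2% of all genes tested in both were. No member rose in 1 model and fell in the other, and 38 of 41 had the same sign in both. Opposite calls and shared signs were not counted over all genes, so this agreement is not read as particular to the members. A further 8 passed in YAP1 KO alone, Hc alone passed in YKTH alone, and 16 passed in neither. None of these is shown to differ between the models, since 0 of 41 members passed the limma test of that difference, as described further on.

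The members made up 2.68% to 2.85% of all TPM as deposited in WT (C57BL/6) and 3.27% to 3.87% in YAP1 KO. In WT (mixed) they made up 2.50% to 2.73% and in YKTH 3.27% to 4.05%. Neither model overlapped its controls in this share, which reads TPM without the scaling. In scaled TPM the sums of the members overlapped in both models. They were 30833–31795 in WT (C57BL/6) and 30442–34894 in YAP1 KO, and 28105–30265 in WT (mixed) and 29351–33854 in YKTH.

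The terminal complement genes held the largest rises and, with Mbl2, the largest falls. The proximal promoters of the genes with the largest rises (C6, C8a) and falls (C8g, Mbl2) are shown here, as the 250 bases before the RefSeq transcript start on the gene's strand in GRCm38.p6. Capitals mark matches, on either strand, to letters searched in all promoters, which were TATAAA (the TATA box), GTTAAT (part of the HNF1 site), TTGCNNAA (C/EBP), AAAGTCC (HNF4), TTCNNNGAA (STAT) and GGAATG (TEAD). The C6 window is chr15:4726960-4727209 (plus strand), the C8a window chr4:104876399-104876648 (minus strand), the C8g window chr2:25501720-25501969 (minus strand) and the Mbl2 window chr19:30232678-30232927 (plus strand).
C6: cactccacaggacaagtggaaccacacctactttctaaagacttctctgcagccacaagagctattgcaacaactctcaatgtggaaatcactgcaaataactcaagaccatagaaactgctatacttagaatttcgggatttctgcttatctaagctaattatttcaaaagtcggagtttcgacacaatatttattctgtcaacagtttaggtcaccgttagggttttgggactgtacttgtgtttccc
C8a: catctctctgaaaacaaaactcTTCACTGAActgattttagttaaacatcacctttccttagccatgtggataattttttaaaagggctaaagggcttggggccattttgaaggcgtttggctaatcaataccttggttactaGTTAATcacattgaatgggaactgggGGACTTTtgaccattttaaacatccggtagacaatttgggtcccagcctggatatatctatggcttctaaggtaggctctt
C8g: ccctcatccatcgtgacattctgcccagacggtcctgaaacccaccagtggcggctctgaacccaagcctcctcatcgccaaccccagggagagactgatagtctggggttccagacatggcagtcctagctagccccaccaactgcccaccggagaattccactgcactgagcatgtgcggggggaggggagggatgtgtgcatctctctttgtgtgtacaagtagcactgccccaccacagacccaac
Mbl2: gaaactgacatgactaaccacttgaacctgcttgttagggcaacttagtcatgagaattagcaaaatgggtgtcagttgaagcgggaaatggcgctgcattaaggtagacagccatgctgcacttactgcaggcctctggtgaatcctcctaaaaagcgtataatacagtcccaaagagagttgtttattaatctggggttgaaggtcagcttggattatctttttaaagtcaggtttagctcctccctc

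The C8a promoter held a STAT match at bases −228 to −220 before its start, an HNF1 match at −107 to −102 and an HNF4 match at −81 to −75. No searched letters were found in the C6, C8g and Mbl2 windows, which says only that these letters are not there. For C8g 2 promoters are listed, and only the one nearest the deposited gene start was searched. Among the 33 members with a promoter in the RefSeq table, the share with a match within 300 bases (250 before and 50 after the start) was 36.4% for the HNF1 letters, against 7.12% of 27025 promoters of all genes. It was 33.3% against 10.7% for C/EBP, 24.2% against 8.36% for STAT and 33.3% against 14.6% for TEAD. The TATA box (15.2% against 14.2%) and the HNF4 letters (6.06% against 4.22%) had shares closer to those of all genes. These shares are a description of the sequences, and a match does not show that a factor binds. The 8 members without an entry were Proc, C2, Kng1, Cfb, Masp1, Plg, Cfi and C4b.

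C6, which joins the complex after C5b, had the largest change of all members. Its gene (ENSMUSG00000022181) spans bases 4727175 to 4814967 of chromosome 15. C6 was at 16.3, 12.8 and 13.3 scaled TPM in the WT (C57BL/6) mice and at 147, 144 and 149 in the YAP1 KO mice. It was at 15, 7.82 and 20.4 in the WT (mixed) mice and at 164, 181 and 177 in the YKTH mice. Every mouse of each model was far above every control, and the models' own mice differed little. The log2 fold change was 3.29 (SE 0.11, 9.8-fold, limma adjusted p = 1.3e-06) in YAP1 KO and 3.60 (SE 0.28, 12.1-fold, limma adjusted p = 5.73e-05) in YKTH.

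C8 is built from 3 chains, of which the alpha chain (C8a) inserts into the membrane with the beta chain (C8b), and the gamma chain (C8g) is a lipocalin bound to the alpha chain. The genes of the alpha and beta chains are neighbours on chromosome 4, within 110082 bases from 104766317 to 104876398, and C8g is on chromosome 2 from 25498651 to 25501719. C8a was at 112, 154 and 125 scaled TPM in WT (C57BL/6) and at 280.2, 251 and 259 in YAP1 KO, and at 124, 76.3 and 146 in WT (mixed) and 259.6, 285 and 263 in YKTH. It rose by 1.02 on the log2 scale (SE 0.13, limma adjusted p = 0.00073) in YAP1 KO and by 1.27 (SE 0.21, limma adjusted p = 0.00256) in YKTH. C8g moved the other way. It was at 585, 447 and 520.5 scaled TPM in WT (C57BL/6) and 154, 208 and 172 in YAP1 KO, and at 531, 566 and 586 in WT (mixed) and 172, 184 and 194 in YKTH. Its log2 fold change was −1.54 (SE 0.15, limma adjusted p = 0.000171) and −1.61 (SE 0.10, limma adjusted p = 2.07e-05), with no overlap between a model and its controls. C8b was at 166, 127 and 104 in WT (C57BL/6) and 133, 132 and 133 in YAP1 KO, so that the groups overlapped (0.03, 95% interval −0.34 to 0.40, limma adjusted p = 0.894). In WT (mixed) it was at 141, 80.6 and 129 and in YKTH at 146, 124 and 128 (0.22, interval −0.24 to 0.68, limma adjusted p = 0.427). LM227 was the lowest WT (mixed) mouse for C6, C8a and C8b.

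**Figure D2:**
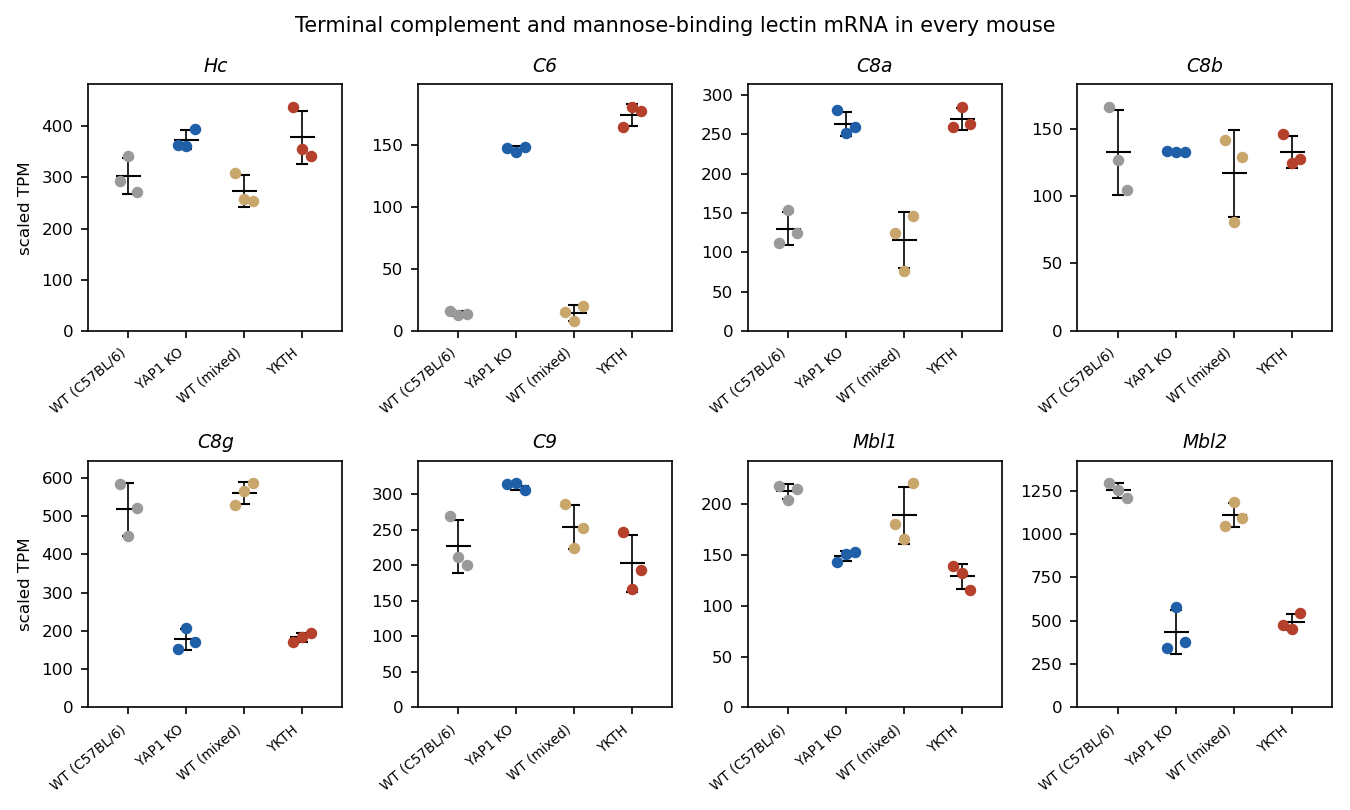
Scaled TPM (y axis, from 0) of 8 complement genes in each mouse of the 4 groups; points are mice, and horizontal lines with whiskers are the mean and SD of 3 mice. C6 and C8a are higher and C8g, Mbl1 and Mbl2 lower in every mouse of each model than in its controls, and C8b overlaps.

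A ratio of 2 genes within a library does not depend on the scaling. C8a to C8g lay between 0.191 and 0.343 in WT (C57BL/6) and between 1.21 and 1.82 in YAP1 KO, a 5.94-fold change. It lay between 0.135 and 0.249 in WT (mixed) and between 1.36 and 1.55 in YKTH, a 7.41-fold change. The gamma chain RNA was thus the more abundant per length in controls and the less abundant in both models. C8a to C8b rose from 0.672–1.21 to 1.89–2.10 in YAP1 KO (1.99-fold) and from 0.877–1.13 to 1.78–2.29 in YKTH (2.08-fold), so that neighbouring genes changed unequally. Each of these 4 comparisons had no overlap and an exact two-sided permutation p = 0.1, the smallest that 3 mice against 3 can give. The WT groups overlapped in both ratios (exact permutation p = 0.5 and p = 1).

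**Figure D3:**
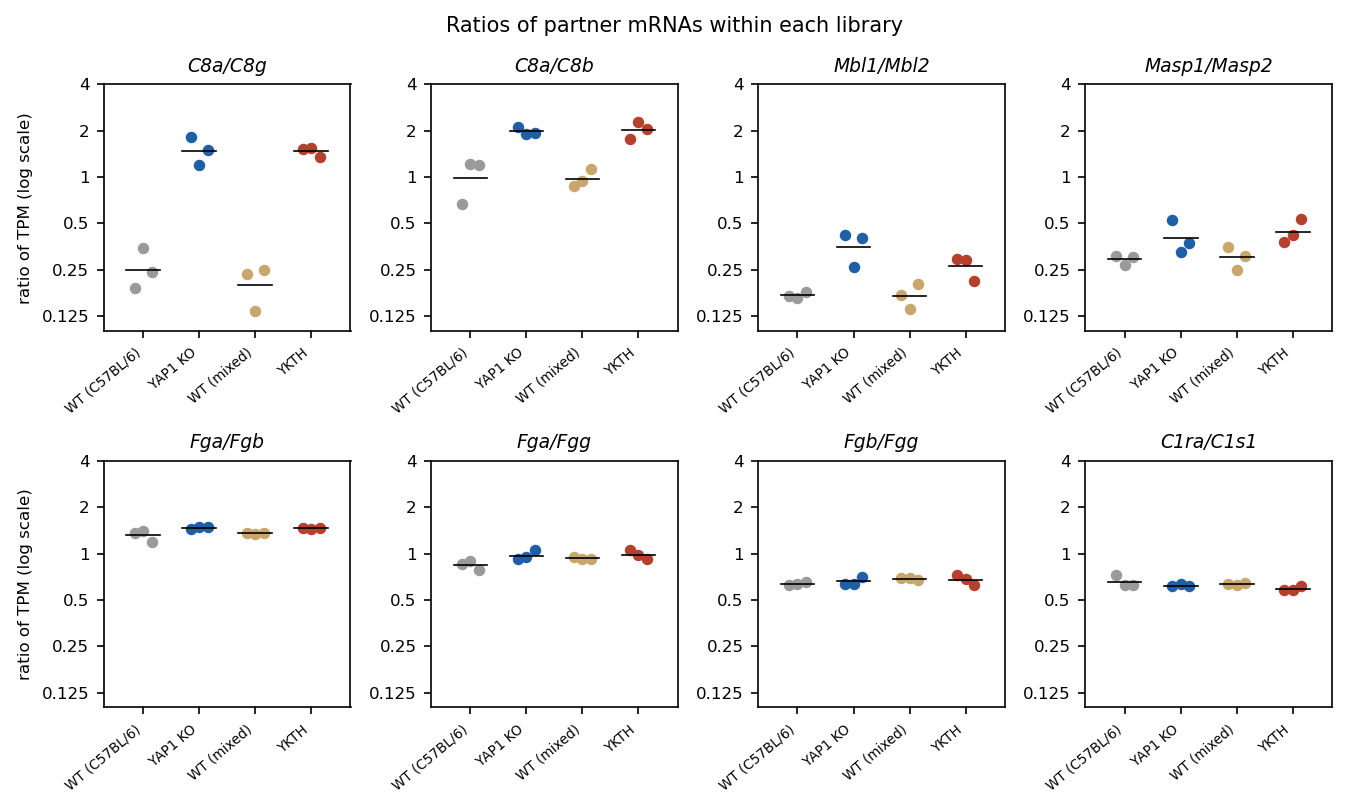
Ratio of TPM within each library (y axis, log scale) for 8 pairs of partner genes in the 4 groups; points are mice and lines are geometric means of 3 mice. C8a/C8g moves from under 0.35 in every control to over 1.2 in every mouse of both models, whereas Fgb/Fgg overlaps between models and controls.

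The other terminal proteins changed less. Hc, the mouse gene for C5, whose cleavage starts the complex, was at 293, 342 and 272 scaled TPM in WT (C57BL/6) and 364, 362 and 395 in YAP1 KO, and the change of 0.31 missed the threshold (limma adjusted p = 0.0612), which it passed on TPM as deposited (0.68, limma adjusted p = 0.00225). After quantile normalization Hc passed in YAP1 KO too (0.66, limma adjusted p = 0.00402). In WT (mixed) it was at 309, 257 and 254 and in YKTH at 438, 355 and 341, a rise of 0.46 (SE 0.14, limma adjusted p = 0.028). The call did not hold in every fit with 1 mouse left out, as the limma adjusted p was 0.0897 without LM227, 0.0839 without LM230, 0.0644 without LM225 and 0.0599 without LM250. C9, which polymerises into the pore, was at 269, 212 and 199.7 in WT (C57BL/6) and 314, 315 and 305 in YAP1 KO, a rise of 0.47 (SE 0.12, limma adjusted p = 0.0201). Without LM192, LM193, LM189 or LM191 its limma adjusted p was 0.0747, 0.0729, 0.0598 and 0.0544. In WT (mixed) C9 was at 286, 224 and 253 and in YKTH at 247, 167 and 194, which overlapped (−0.34, limma adjusted p = 0.134). In all, 3 of 6 terminal genes rose and 1 fell in each model.

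Of the 4 lectin pathway genes Mbl2, Masp2 and Mbl1 fell in each model, the last of them with the scaling alone, and Masp1 did not pass. The mannose-binding lectins Mbl1 and Mbl2 recognise microbial sugars, and the proteases Masp1 and Masp2 that they carry start the cleavage of C4 and C2. Mbl2 (chromosome 19, 30232942 to 30239687) was at 1292, 1255 and 1207 scaled TPM in WT (C57BL/6) and at 343, 578 and 378 in YAP1 KO. In WT (mixed) it was at 1047, 1186 and 1094 and in YKTH at 477, 453 and 542. All model mice were below all of their controls, with log2 fold changes of −1.57 (SE 0.19, limma adjusted p = 0.000533) and −1.18 (SE 0.12, limma adjusted p = 0.000199). Mbl1 fell less, from 218, 204 and 215 to 144, 150.4 and 153 in YAP1 KO (−0.51, limma adjusted p = 0.00286). In WT (mixed) it was at 180.3, 166 and 220.4 and in YKTH at 139.5, 132 and 115 (−0.54, limma adjusted p = 0.0141). In TPM as deposited its change was −0.14 and −0.22 and did not pass in either model (limma adjusted p = 0.169 and 0.23), nor did it after quantile normalization (0.091 and 0.176), and in YKTH it was 0.0632 without LM251. The ratio of Mbl1 to Mbl2 rose 2.08-fold in YAP1 KO (0.163–0.178 to 0.260–0.419) and 1.55-fold in YKTH (0.140–0.201 to 0.213–0.293), without overlap (exact permutation p = 0.1 in each).

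Masp2 was at 152, 157 and 140.1 scaled TPM in WT (C57BL/6) and at 79.1, 100.3 and 99.2 in YAP1 KO (log2 fold change −0.69, SE 0.12, limma adjusted p = 0.00301). It was at 151, 167 and 149 in WT (mixed) and at 103, 91.1 and 86.5 in YKTH (−0.73, SE 0.11, limma adjusted p = 0.00136). Both groups of model mice lay below their controls. Tardbp, at a mean of 24.6 TPM over all mice, overlaps Masp2 on the opposite strand and shares exact transcript sequence with it, and it had a log2 change of −0.61 in YAP1 KO (limma adjusted p = 0.0194) and −0.12 in YKTH (limma adjusted p = 0.495), so that part of the Masp2 value is uncertain. Masp1 did not pass (−0.24 and −0.18, limma adjusted p = 0.134 and 0.296; 0.12 and 0.13 in TPM as deposited), with 42.3 to 46.6 scaled TPM in WT (C57BL/6) and 32.7 to 41.3 in YAP1 KO. The Masp1 to Masp2 ratio rose 1.37-fold and 1.46-fold without overlap (exact permutation p = 0.1 in each).

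In the classical pathway 2 of 4 genes rose in YAP1 KO and none passed in YKTH (limma, 1 at an unadjusted p under 0.05). C1ra and C1s1, the proteases of C1, did not pass. C1ra lay between 183 and 234 scaled TPM and C1s1 between 296 and 380.3 over all 12 mice, with log2 changes of 0.08 and 0.16 in YAP1 KO and −0.03 and 0.08 in YKTH. On TPM as deposited their YAP1 KO changes were 0.44 and 0.53 and did pass (limma adjusted p = 0.00358 and 0.00443). After quantile normalization these changes passed too (0.41 and 0.51, limma adjusted p = 0.00924 and 0.0115). In YKTH C1s1 passed on TPM as deposited (0.40, limma adjusted p = 0.0471) and after quantile normalization (0.45, limma adjusted p = 0.0334). C4b, the mouse C4, was at 653, 611 and 464 in WT (C57BL/6) and 808, 790.2 and 1034 in YAP1 KO, a rise of 0.61 (SE 0.16, limma adjusted p = 0.0205). Without LM193 or LM191 its limma adjusted p was 0.0635 and 0.0724. In WT (mixed) it was at 702, 594 and 558 and in YKTH at 903, 732 and 744, again without overlap, but the change of 0.36 missed the threshold (limma adjusted p = 0.072), which it passed on TPM as deposited (0.68, limma adjusted p = 0.00982). After quantile normalization C4b passed in YKTH too (0.84, limma adjusted p = 0.00321). C2, the partner of C4b in the C3 convertase, was at 76.6, 66.6 and 56 in WT (C57BL/6) and 85, 88.8 and 88.4 in YAP1 KO (0.40, limma adjusted p = 0.0353). This passed only without LM75 among the fits that left out a mouse, with a limma adjusted p of 0.0871 without LM192, 0.106 without LM193, 0.065 without LM74, 0.093 without LM189 and 0.0955 without LM191. In YKTH C2 had a log2 change of 0.25 (limma adjusted p = 0.255), and of 0.57 in TPM as deposited (limma adjusted p = 0.0362).

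C3, the convergence point of all pathways, was the most abundant complement member. It was at 3587, 5320.1 and 4707 scaled TPM in WT (C57BL/6) and at 6139.6, 6528 and 8055 in YAP1 KO. It was at 4037, 3821 and 3958 in WT (mixed) and at 7010.0, 7002 and 6689 in YKTH. Every model mouse was above every control, and the controls of YAP1 KO spread more widely than those of YKTH. C3 rose by 0.62 on the log2 scale in YAP1 KO (SE 0.18, limma adjusted p = 0.0304) and by 0.81 in YKTH (SE 0.13, limma adjusted p = 0.002). In YAP1 KO its limma adjusted p was 0.0842 without LM75, 0.0664 without LM193, 0.0583 without LM189 and 0.103 without LM191. Factor B (Cfb), the protease of the alternative C3 convertase, was at 912, 952 and 991 in WT (C57BL/6) and 1127, 1133 and 1259 in YAP1 KO (0.30, limma adjusted p = 0.048). That call was lost without LM75 (limma adjusted p = 0.114), LM192 (0.124), LM193 (0.0864), LM189 (0.0833) or LM191 (0.166). In YKTH Cfb was at 1072, 1073 and 1019.6 against 938, 962 and 857 (0.20, limma adjusted p = 0.183), and on TPM as deposited its change of 0.52 passed (limma adjusted p = 0.00718). After quantile normalization Cfb passed in YKTH too (0.72, limma adjusted p = 0.00135).

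Properdin (Cfp), which stabilises the alternative convertase, was at 35.6, 32.5 and 31.5 scaled TPM in WT (C57BL/6) and 61.9, 62.8 and 46.8 in YAP1 KO. It was at 42, 28.7 and 38.6 in WT (mixed) and 64.1, 83.1 and 92.1 in YKTH. Model and control mice did not overlap, and Cfp rose by 0.76 (SE 0.13, limma adjusted p = 0.00335) and 1.11 (SE 0.18, limma adjusted p = 0.00196) on the log2 scale. Of 8 macrophage markers, Adgre1 and Cd68 among them, 7 rose in each model and none was at 0; they summed to 303–390.3 scaled TPM in WT (C57BL/6), 738–1006 in YAP1 KO, 265–538 in WT (mixed) and 887–1099 in YKTH. Of 6 monocyte and neutrophil markers 6 rose in YAP1 KO (12.4–18.1 to 49.4–50.8) and 3 in YKTH (7.07–9.4 to 13.4–50.4). The YKTH sum was 50.4 in LM225 and 13.4 and 21 in the others. The part of these cells in the Cfp change was not tested. Adipsin (Cfd), the fat-derived protease that activates factor B, was at 0.147, 8.34 and 0.282 in WT (C57BL/6), 0.114, 3.06 and 1.9 in YAP1 KO, 0.401, 0 and 1.43 in WT (mixed) and 0.957, 0 and 2.16 in YKTH. These values overlapped throughout (limma adjusted p = 0.986 and 0.644), and 5 adipocyte markers summed to 2.99–6.18, 0.576–1.23, 2.09–4.65 and 0.852–1.57 in the same order of groups. Most of each WT sum was Adrb3, with means of 4.13, 0.486, 3.41 and 0.958 and the only marker of the 5 high enough to be tested, while Adipoq, Retn, Plin1 and Lep were at or near 0 in every group.

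Of the 3 complement regulators, C4bp, which binds C4b and speeds the decay of the classical convertase, rose in YAP1 KO, from 272, 327 and 294 to 411, 423 and 445 scaled TPM (log2 fold change 0.52, SE 0.10, limma adjusted p = 0.00578). It was at 289, 282 and 337 in WT (mixed) and 409, 335 and 351 in YKTH, which overlapped (0.27, limma adjusted p = 0.117). In YKTH C4bp passed on TPM as deposited (0.59, limma adjusted p = 0.0065) and after quantile normalization (0.65, limma adjusted p = 0.00471). Factor I (Cfi), which cleaves C3b and C4b, did not pass in either model (−0.21 and −0.13, limma adjusted p = 0.14 and 0.376). Vitronectin (Vtn), which blocks the terminal complex in the fluid phase, lay between 2489 and 3484 over all mice and did not pass (−0.12 and −0.06, limma adjusted p = 0.435 and 0.724). After quantile normalization its sign turned and it passed in both models (0.35 and 0.33, limma adjusted p = 0.0403 and 0.0306).

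Among the vitamin K-dependent clotting proteases none rose in either model, 3 of 4 fell in YAP1 KO and 1 of 4 in YKTH. Factor VII (F7), which starts clotting with tissue factor, was at 194, 209 and 178 scaled TPM in WT (C57BL/6) and 96.3, 94.3 and 116 in YAP1 KO. It was at 176, 174 and 155 in WT (mixed) and 111, 116 and 113 in YKTH. No model mouse reached a control, and the log2 fold change was −0.92 (SE 0.12, limma adjusted p = 0.000687) in YAP1 KO and −0.56 (SE 0.10, limma adjusted p = 0.00278) in YKTH. In YKTH the change was −0.24 in TPM as deposited (limma adjusted p = 0.104) and −0.29 after quantile normalization (limma adjusted p = 0.0509). Factor X (F10), which its neighbour F7 activates, fell in YAP1 KO from 433, 408 and 412 to 314, 321 and 319.7 (−0.39, limma adjusted p = 0.00943), but its change was −0.02 in TPM as deposited (limma adjusted p = 0.836) and −0.03 after quantile normalization (limma adjusted p = 0.791). In YKTH F10 was at 308, 339 and 364 against 378, 405 and 405 (−0.24, limma adjusted p = 0.115).

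Factor IX (F9), the gene product missing in haemophilia B, was at 145, 144 and 144 scaled TPM in WT (C57BL/6) and 99.9, 121 and 120.5 in YAP1 KO (log2 fold change −0.35, limma adjusted p = 0.0314). Its sign turned in TPM as deposited (0.02, limma adjusted p = 0.879), and its limma adjusted p was 0.0621 without LM75, 0.0881 without LM192, 0.0808 without LM193, 0.0662 without LM74 and 0.0538 without LM191. In YKTH F9 was at 131, 116 and 119 against 149, 150.1 and 145, a change of −0.28 at the threshold without passing it. Prothrombin (F2), the zymogen of thrombin, was at 2251, 2109 and 2182 in WT (C57BL/6) and 1515, 1803 and 1921 in YAP1 KO, and at 1999, 2153 and 2118 in WT (mixed) and 1679, 1737 and 1706 in YKTH. Its groups did not overlap, yet the changes of −0.33 and −0.29 missed the threshold (limma adjusted p = 0.0683 and 0.0749) and were 0.04 and 0.03 in TPM as deposited.

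The vitamin K-dependent anticoagulants moved in different directions. Protein C (Proc), which inactivates factors V and VIII once thrombin has cleaved it, was at 583, 552 and 588 scaled TPM in WT (C57BL/6) and 338, 391 and 406 in YAP1 KO, a log2 change of −0.60 (SE 0.10, limma adjusted p = 0.00306). It was at 469, 573 and 512 in WT (mixed) and 359.8, 393 and 385 in YKTH (−0.44, limma adjusted p = 0.0161). The call was lost after quantile normalization in YAP1 KO (−0.24, limma adjusted p = 0.0629) and YKTH (−0.06, limma adjusted p = 0.607), in TPM as deposited in YKTH (−0.12, limma adjusted p = 0.348), and in YKTH without LM227 (0.0624) or LM251 (0.0537). Protein S (Pros1), the cofactor of activated protein C, rose. It was at 50, 41.4 and 40 in WT (C57BL/6) and 74.4, 67 and 65.5 in YAP1 KO, and at 41, 40.2 and 37.5 in WT (mixed) and 69.9, 56.1 and 63.5 in YKTH. The groups did not overlap, and its log2 fold change was 0.65 (SE 0.12, limma adjusted p = 0.00362) and 0.66 (SE 0.11, limma adjusted p = 0.00242). Protein Z (Proz), a cofactor in the inhibition of factor Xa, was at 234, 244 and 243 in WT (C57BL/6) and 182, 180.0 and 202 in YAP1 KO (−0.35, limma adjusted p = 0.0181), with a change of 0.01 in TPM as deposited (limma adjusted p = 0.917). Without LM192, LM193 or LM189 its limma adjusted p was 0.0678, 0.0596 and 0.0663, and in YKTH it had a change of −0.10 (limma adjusted p = 0.522).

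Neither clotting cofactor passed in either model (limma, 1 of 2 at an unadjusted p under 0.05 in each). Factor V (F5), which factor Xa needs to cleave prothrombin, lay between 116 and 208 scaled TPM over all mice (log2 changes −0.30 and −0.29, limma adjusted p = 0.0988 and 0.141). Factor VIII (F8), the cofactor of factor IXa, was low, at 2.93, 1.8 and 1.98 in WT (C57BL/6), 2.07, 1.25 and 1.16 in YAP1 KO, 3.04, 3.75 and 2.99 in WT (mixed) and 2.63, 1.87 and 2.33 in YKTH. Its changes were −0.38 and −0.38 (limma adjusted p = 0.18 and 0.0703), and after quantile normalization −0.59 and −0.60 (limma adjusted p = 0.0382 and 0.0142). Of 8 endothelial markers 2 fell in YAP1 KO, and 1 rose and 2 fell in YKTH. They summed to 129–152 scaled TPM in WT (C57BL/6), 107–134 in YAP1 KO, 163–169.7 in WT (mixed) and 109.9–168 in YKTH. The range of each model overlapped that of its controls, through LM74 and LM251. The sums of LM189 and LM191 lay below every WT (C57BL/6) sum, and those of LM225 and LM250 below every WT (mixed) sum. The part of endothelial cells in the F8 level was not tested. Fundc2 overlaps F8 and was the higher of the 2 genes.

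In the contact system F11 and Klkb1, neighbours within 53686 bases on chromosome 8, fell in both models. Factor XI (F11), which activates factor IX, was at 80.2, 76.5 and 61.6 scaled TPM in WT (C57BL/6) and 24, 32.2 and 46.8 in YAP1 KO. It was at 75.3, 62.4 and 98.5 in WT (mixed) and 46.4, 41.4 and 41.4 in YKTH. F11 was lower in every model mouse, with YAP1 KO mice spread more widely than YKTH mice, and the log2 fold change was −1.10 (SE 0.22, limma adjusted p = 0.00635) and −0.83 (SE 0.16, limma adjusted p = 0.00472). Plasma prekallikrein (Klkb1) was at 164, 148 and 156 in WT (C57BL/6) and 105, 101 and 102 in YAP1 KO (−0.59, SE 0.09, limma adjusted p = 0.00156). It was at 141, 158 and 165 in WT (mixed) and 102, 106 and 111 in YKTH (−0.54, SE 0.10, limma adjusted p = 0.00432). The same changes in TPM as deposited were −0.23 and −0.22 and missed the threshold (limma adjusted p = 0.0725 and 0.0782). Factor XII (F12), which starts contact activation, lay between 474 and 617 over all mice and did not pass (−0.11 and −0.01, limma adjusted p = 0.458 and 0.932). Its sign turned in TPM as deposited, where it passed in both models (0.25 and 0.31, limma adjusted p = 0.0426 and 0.0328), and after quantile normalization it passed in YKTH (0.37, limma adjusted p = 0.0151). High-molecular-weight kininogen (Kng1), the carrier of prekallikrein and factor XI, lay between 1154 and 1681 (−0.28 and −0.21, limma adjusted p = 0.0898 and 0.241), turned to 0.34 in YKTH after quantile normalization (limma adjusted p = 0.0446), and its near-identical copy Kng2 (92.6% identity) makes its value uncertain.

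The 3 fibrinogen genes stood together on chromosome 3, within 42140 bases from 83007724 to 83049863. Their promoters are shown because these genes share a neighbourhood and a protein. The windows are chr3:83025903-83026152 (plus strand) for Fga, chr3:83049864-83050113 (minus strand) for Fgb and chr3:83007474-83007723 (plus strand) for Fgg, with capitals as before.
Fga: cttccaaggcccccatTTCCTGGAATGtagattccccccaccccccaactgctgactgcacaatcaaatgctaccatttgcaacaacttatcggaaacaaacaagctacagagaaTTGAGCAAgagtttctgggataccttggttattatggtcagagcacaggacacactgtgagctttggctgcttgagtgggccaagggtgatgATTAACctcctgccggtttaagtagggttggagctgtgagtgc
Fgb: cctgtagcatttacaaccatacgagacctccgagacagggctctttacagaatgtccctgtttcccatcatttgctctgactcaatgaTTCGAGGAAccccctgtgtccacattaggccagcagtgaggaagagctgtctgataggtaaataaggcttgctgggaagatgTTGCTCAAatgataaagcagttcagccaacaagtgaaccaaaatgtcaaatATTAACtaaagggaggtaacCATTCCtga
Fgg: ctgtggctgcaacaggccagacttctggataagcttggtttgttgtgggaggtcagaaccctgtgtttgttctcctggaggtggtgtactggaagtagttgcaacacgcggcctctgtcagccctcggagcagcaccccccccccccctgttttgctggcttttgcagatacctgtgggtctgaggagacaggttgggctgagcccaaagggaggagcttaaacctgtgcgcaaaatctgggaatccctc

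Fga and Fgb each held an HNF1 match (at −43 to −38 and −29 to −24), a C/EBP match, a STAT match and a TEAD match, and in Fga the STAT and TEAD letters overlapped. Fgg held none of the searched letters. Fga (alpha chain) was at 2728, 2420.0 and 2283 scaled TPM in WT (C57BL/6) and 3302, 2647 and 3170.1 in YAP1 KO, and at 2370.0, 2019 and 2672 in WT (mixed) and 3696, 2404 and 2557 in YKTH. Fgb (beta chain) lay between 1515 and 2509 and Fgg (gamma chain) between 2191 and 3595 over all mice. LM225 was the highest YKTH mouse and LM74 the highest YAP1 KO mouse for all 3 chains, and models and controls overlapped in each. The log2 changes were 0.29, 0.13 and 0.08 in YAP1 KO and 0.28, 0.17 and 0.20 in YKTH, and none passed (limma adjusted p from 0.121 to 0.66). In TPM as deposited they were 0.66, 0.50 and 0.45 in YAP1 KO, all with a limma adjusted p under 0.05, and 0.60, 0.49 and 0.52 in YKTH, where Fga and Fgg passed. After quantile normalization all 3 chains passed in both models (limma adjusted p from 0.00644 to 0.0356). The changes were then 0.69, 0.56 and 0.53 in YAP1 KO and 0.66, 0.66 and 0.56 in YKTH. The ratio of Fgb to Fgg differed little from controls (1.03-fold and 0.982-fold, exact permutation p = 0.6 and 0.8). Fga to Fgb rose 1.12-fold in YAP1 KO and 1.08-fold in YKTH without overlap (exact permutation p = 0.1 in each). Fga to Fgg rose 1.16-fold in YAP1 KO without overlap (exact permutation p = 0.1) and overlapped in YKTH (1.06-fold, exact permutation p = 0.4). It was also higher in WT (mixed) than in WT (C57BL/6) without overlap (1.11-fold, exact permutation p = 0.1).

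F13b, the carrier subunit of the enzyme that crosslinks fibrin, fell in both models. It was at 239.9, 212 and 206 scaled TPM in WT (C57BL/6) and 139.8, 148 and 145 in YAP1 KO (log2 fold change −0.60, SE 0.10, limma adjusted p = 0.00217). It was at 195, 223 and 225 in WT (mixed) and 147, 129.5 and 134 in YKTH (−0.64, SE 0.11, limma adjusted p = 0.0023). No model mouse reached a control. In TPM as deposited the YAP1 KO change was −0.23 (limma adjusted p = 0.0552) and the YKTH change −0.32 (limma adjusted p = 0.0398).

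**Figure D4:**
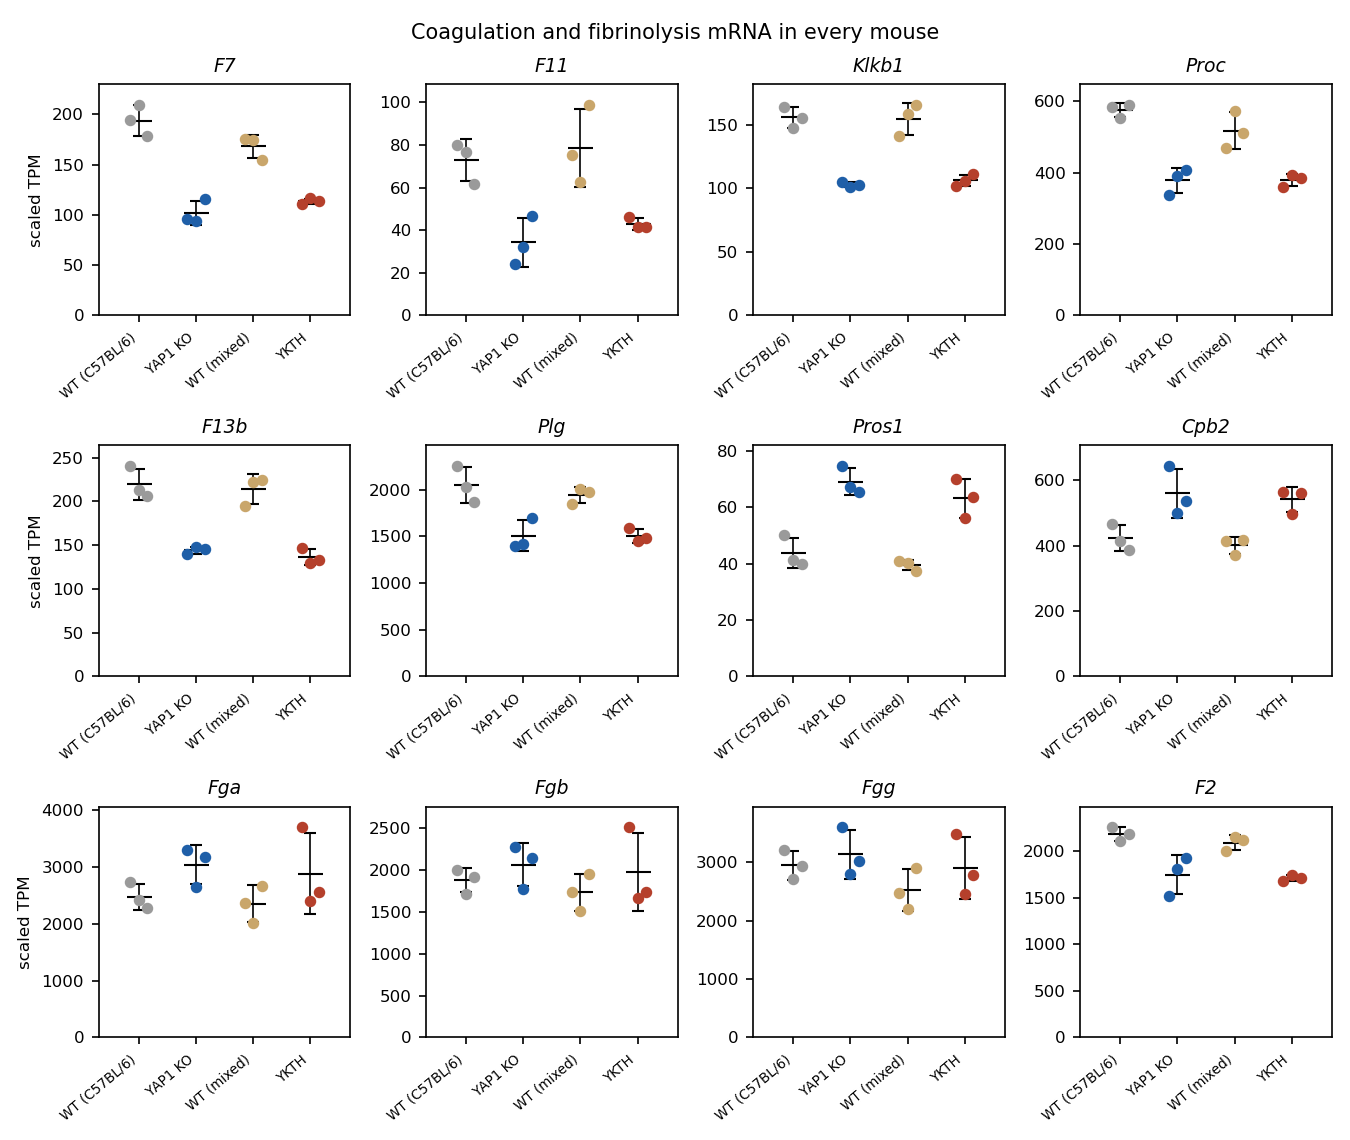
Scaled TPM (y axis, from 0) of 12 coagulation and fibrinolysis genes in each mouse of the 4 groups; points are mice, and horizontal lines with whiskers are the mean and SD of 3 mice. F7, F11, Klkb1, Proc and F13b are lower and Pros1 and Cpb2 higher in every mouse of each model than in its controls, and the fibrinogen chains overlap.

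Of the fibrinolysis genes, plasminogen (Plg), the zymogen of plasmin, was lower and Cpb2, which encodes an inhibitor of fibrinolysis that trims fibrin, was higher. Plg was at 2247, 2025 and 1872 scaled TPM in WT (C57BL/6) and 1397, 1419.9 and 1696 in YAP1 KO (log2 fold change −0.45, limma adjusted p = 0.0258), and at 1848, 2008 and 1979 in WT (mixed) and 1593, 1447 and 1481 in YKTH (−0.37, limma adjusted p = 0.0359). It did not pass in TPM as deposited (−0.08 and −0.05, limma adjusted p = 0.585 and 0.773) or after quantile normalization (−0.02 and 0.11, limma adjusted p = 0.901 and 0.351). In YAP1 KO its limma adjusted p was 0.0731 without LM75, 0.0716 without LM192, 0.0563 without LM74 and 0.0793 without LM189, and in YKTH 0.111 without LM227, 0.0936 without LM230, 0.131 without LM250 and 0.109 without LM251. Cpb2 was at 465, 415 and 388 in WT (C57BL/6) and 642, 499 and 537 in YAP1 KO (0.40, SE 0.13, limma adjusted p = 0.0392). It was at 415, 372 and 416 in WT (mixed) and 565, 496 and 562 in YKTH (0.43, SE 0.11, limma adjusted p = 0.0158). Its groups did not overlap and it passed under all 3 scalings, but in YAP1 KO its limma adjusted p was 0.107 without LM192, 0.128 without LM193, 0.0882 without LM74 and 0.0826 without LM191, and in YKTH 0.0634 without LM227 and 0.0668 without LM251. Histidine-rich glycoprotein (Hrg), which binds plasminogen and heparin, did not pass (−0.04 and −0.02, limma adjusted p = 0.829 and 0.911). After quantile normalization it turned to 0.50 in YKTH and passed (limma adjusted p = 0.0112).

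**Figure D5:**
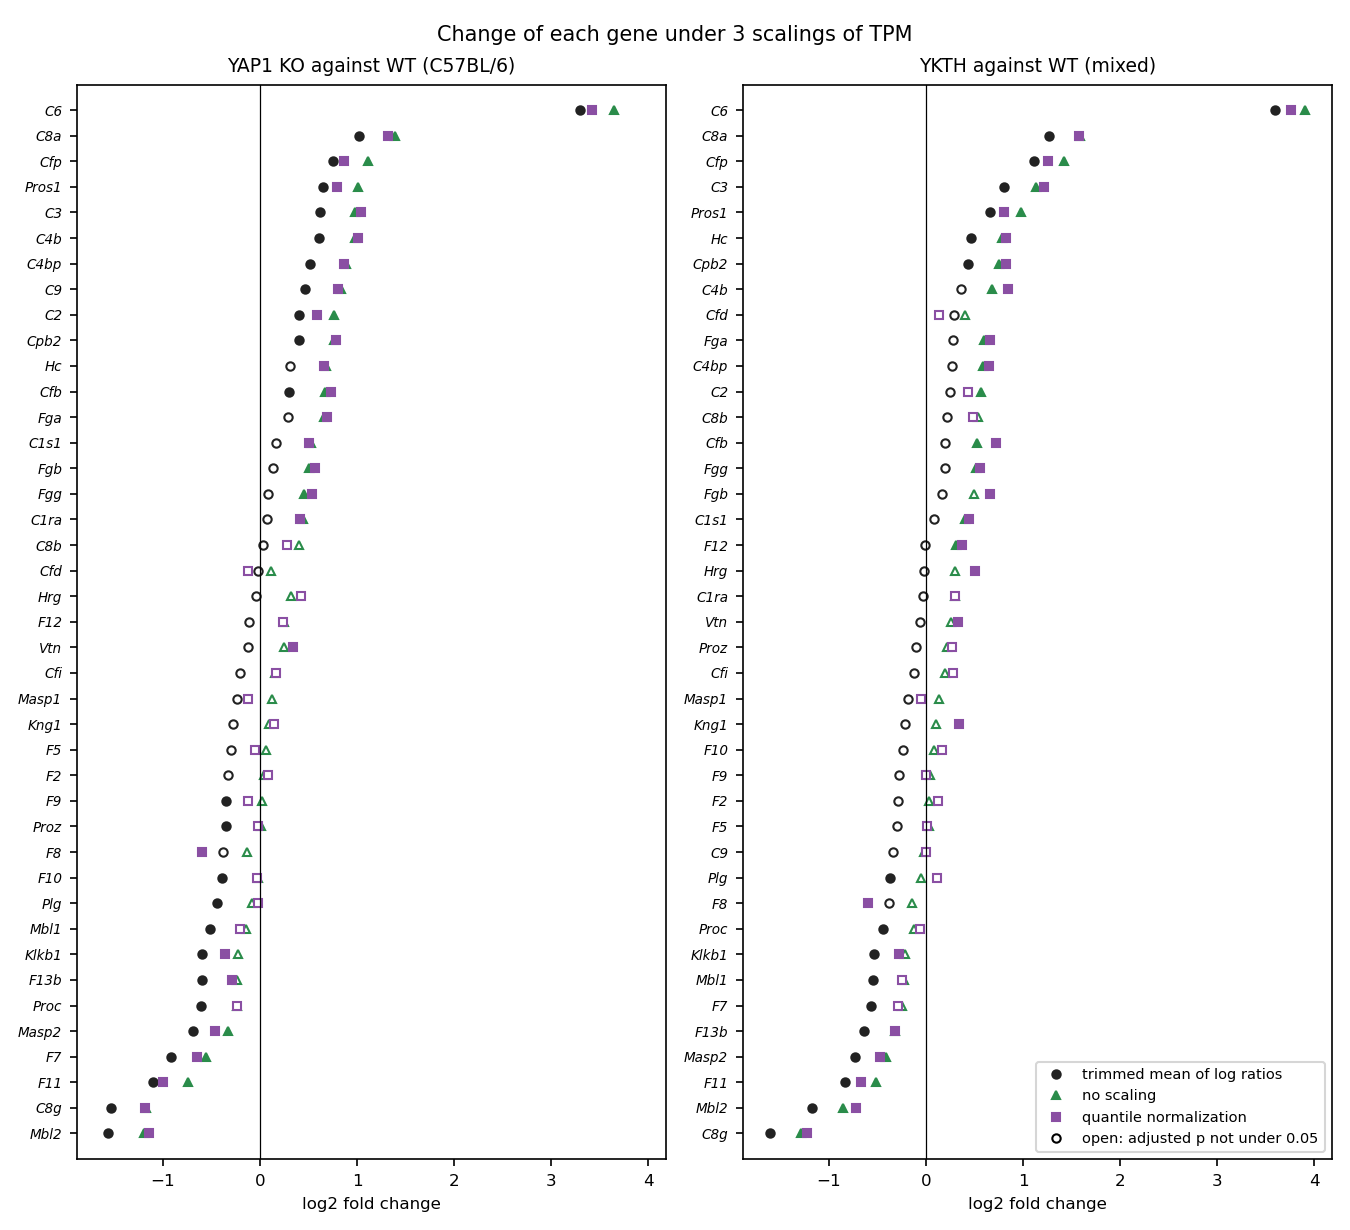
Log2 fold change (x axis) of each of the 41 genes (y axis) in both models under 3 scalings: the trimmed mean of log ratios, TPM as deposited and quantile normalization. Filled points have a limma adjusted p under 0.05 and open points do not; C6, C8a, C8g and Mbl2 keep their direction and their filled points under all 3, whereas in YAP1 KO F9, F10, Proz and Plg are filled under the trimmed mean alone and move toward 0 under the others.

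Across all alternatives of pseudocount, filter, scaling, variance and samples, C6, C8a, C8g, Mbl2, Masp2, Cfp, Pros1 and F11 kept their direction and stayed under the threshold in both models, with each mouse left out in turn as well. C3 and F13b did so in YKTH, and C4bp and F7 in YAP1 KO.

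The WT groups, which differ in background, were compared to see what level each model's controls start from. Of 40 members tested none passed (limma), 1 had an unadjusted p under 0.05, and 0.216% and 5.75% of all genes did so. That member was F8, higher in WT (mixed) by 0.41 on the log2 scale (limma adjusted p = 0.839). The log2 differences ran from −0.25 to 0.41, and Cfd was too low to be tested. The change in YAP1 KO was then set against the change in YKTH. None of the 41 members passed this test of the difference (limma), 2 had an unadjusted p under 0.05, and over all genes 0.0576% and 4.56% did so. These were C9, with a difference of 0.81 (limma adjusted p = 0.763), and F7, with a difference of −0.36 (limma adjusted p = 0.998). For C6 the difference was −0.30 with a 95% interval of −1.03 to 0.42, and for C8g it was 0.07 with an interval of −0.32 to 0.47, so that these data bound the difference between the models only to about that width.

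Complement genes outside the 41, among them the C1q chains, receptors, membrane regulators and collectins, were taken from a list of 26. In YAP1 KO 9 rose and 5 fell of 23 tested, and in YKTH 9 rose and 5 fell of 22. That is 60.9% and 63.6% of those tested, where 37% and 38.2% of all genes tested changed. Past the threshold under all 3 scalings were 9 higher and 2 lower in YAP1 KO, where 15.8% and 7.04% of all genes were. In YKTH there were 8 higher and 3 lower, with 15.9% and 7.32% of all genes. The median log2 change of the list was 0.01 in YAP1 KO and 0.22 in YKTH. The largest rises in YAP1 KO were of Clu, whose product clusterin restrains the terminal complex (2.29 on the log2 scale; 2.19 in YKTH), C1qb, a chain of C1q (1.47; 1.43 in YKTH), and Itgax, a chain of a complement receptor on myeloid cells (1.44). In YKTH Clu was followed by Itgb2, the partner chain of that receptor (1.67), and C3ar1, the C3a receptor (1.51). C1q and these receptors are made by macrophages and other myeloid cells, whose markers were higher in both models by the values given for Cfp, and their part was not tested. Among those that fell were Colec10, a collectin of the lectin pathway (−1.41 and −1.28), and Cd59a, the membrane inhibitor of the pore (−0.63 and −1.07). On TPM as deposited Cd59a missed the threshold in YAP1 KO (limma adjusted p = 0.0568).

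Of 25 further coagulation genes 22 were tested in each model, of which 8 rose and 4 fell in YAP1 KO and 9 rose and 3 fell in YKTH. That is 54.5% of those tested in each model, where 37% and 38.2% of all genes tested changed. Past the threshold under all 3 scalings were 8 higher and 2 lower in YAP1 KO, where 15.8% and 7.04% of all genes were. In YKTH there were 8 higher and 1 lower, with 15.9% and 7.32% of all genes. Plat, the tissue plasminogen activator, rose by 2.75 on the log2 scale in YAP1 KO and 1.96 in YKTH. Plaur, the urokinase receptor, rose by 1.46 in YAP1 KO, and Procr, the endothelial protein C receptor, by 1.49 in YKTH. F3, tissue factor, fell (−0.996 and −0.73), as did Vkorc1, which recycles vitamin K (−0.96 and −0.61), and Lman1, which carries factors V and VIII out of the endoplasmic reticulum (−0.55 and −0.47). Vkorc1 lost its call in YKTH in TPM as deposited and after quantile normalization, and Lman1 lost it in both models. Of 8 stellate cell and fibroblast markers 4 rose and 1 fell in YAP1 KO and 4 rose in YKTH, and they summed to 154–187 scaled TPM in WT (C57BL/6), 311–382 in YAP1 KO, 133–157 in WT (mixed) and 247–348 in YKTH. Of 6 biliary markers Spp1 and Sox9 rose in each model. The marker sums were 33.1–61.1, 300.2–615, 48.3–69.0 and 88.6–182 in the same order, and most of each was Spp1, with means of 45.9, 393, 50.1 and 135 scaled TPM. The other 4, Krt7, Krt19, Epcam and Cftr, did not rise, and Epcam fell in YKTH (mean 2.79 to 0.336), with Cftr near 0 throughout. The part of these cells in the changes of Plat, Plaur and Procr was not tested. No gene of either list passed between the WT groups (limma), where 4 of 19 complement and 0 of 18 coagulation genes had an unadjusted p under 0.05. Of all genes tested between the WT groups, 5.75% had such a p.

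Whether reads were counted by strand is not given in the sources used here, so that members that overlap another gene are uncertain, as are those with near-identical copies. Another annotated gene overlaps 15 of the 41. At 90% identity over 30% of the transcript or more, 8 members matched a transcript of another gene. The copies of C1ra, C1s1 and C4b were at or near 0 TPM, and Kng2, the copy of Kng1, was at 226 TPM. The other matches were to genes that overlap the member itself, and so are not separate copies. These were Gm20547 (1.80 TPM, for C2 and Cfb), Gm45753 (0.31 TPM, for Klkb1) and Tardbp (24.6 TPM, for Masp2). C8g overlaps Fbxw5 on the opposite strand. Fbxw5 was at 28.2 to 34.2 scaled TPM over all mice, with log2 changes of 0.10 and 0.14 (limma adjusted p = 0.486 and 0.273), a level below C8g itself in every mouse.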

How the data were processed

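RNA of 12 whole livers was sequenced, and the authors deposited TPM per gene and mouse, made in CLC Genomics Workbench against the mouse build GRCm38.p6. TPM keeps no read counts, so the counting error behind a value is unknown, and the 3 mice per group limit the precision. Each library summed to 1000000 TPM, 14442 to 15047 genes were above 0, and no pair of libraries was identical. The deposited fold changes and p-values of the authors' edgeR comparisons were not used. TPM was scaled once over 12 libraries by an unweighted trimmed mean of log ratios (30% of ratios, 5% of levels) and tested as log2(scaled TPM + 1) with limma 3.58.1 (trend, R 4.3.3), two-sided, over genes that reached 1 TPM in 3 or more of the libraries fitted, each model against its own WT littermates. The fit for the difference between the models used all 12 libraries. Ratios were tested with an exact permutation test. The code was tested on simulated data.

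The members, roles and gene lists were chosen with earlier results of these data known. All 41 members are accounted for by role, those past the threshold with values; of the lists of other genes, at most 3 in each direction by size of change are named, and some of these are not reported here. Copies were sought with blastn 2.17.0, and positions were read from GENCODE M21, whose start and end matched the deposited ones for 41 of 41. Alternatives were other pseudocounts, filters, scalings, variance shrinkage, thresholds, samples in the fit and each mouse left out.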

Additional observations from a re-analysis of the deposited data

Results flagged for a closer look

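C9 was picked out because every YAP1 KO mouse lay above the mean of its littermates and every YKTH mouse below the mean of its own. Its log2 change was 0.47 in YAP1 KO and −0.34 in YKTH, a difference of 0.81 on the log2 scale. The test of the difference over 12 libraries gave a limma adjusted p = 0.763, so that it failed the correction over all genes. In TPM as deposited the change in YKTH was −0.02.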

How the results depend on the processing

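At an adjusted p under 0.01, 15 members changed in YAP1 KO in place of 24, and with a change over 2-fold required 5 did in each model. With 1 mouse left out in turn, 16 to 20 members passed in YAP1 KO and 13 to 18 in YKTH, in fits of fewer samples, while none passed in any such fit between the WT groups or between the models. The other alternatives gave 20 to 26 members in YAP1 KO and 17 to 25 in YKTH. The shares of all genes that passed under these settings are not given here, so these counts are not read as particular to the members. Of 574 alternatives for the 41 changes past the threshold, 497 kept direction and threshold, 74 kept direction alone and 3 reversed. In TPM as deposited, F9 and Proz in YAP1 KO turned to 0.0175 and 0.0135 (limma adjusted p = 0.879 and 0.917), and after quantile normalization Plg in YKTH turned to 0.11 (limma adjusted p = 0.351); the cause was not tested. No ratio moved by more than the spread between mice when a mouse was left out. No paired analysis was possible because the labels do not give the litter of each mouse.

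With 3 mice a group, an exact test of a single value cannot go under 0.1. TPM keeps no read counts, so that counting error is unknown, which matters most for low genes such as F8 and Cfd. The scaling sets the sign of changes near 0, and no spike-in bears on it. The models differ in background and floxed line as well as genotype. Whole-liver RNA does not separate cell types, and RNA is not plasma protein.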
